A study of Mus musculus with 19 samples.

Results

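The T cell receptor segments are the V (variable), D (diversity), J (joining) and C (constant) gene pieces of the beta, gamma, alpha and delta loci. They were taken as every row of the deposited expression table whose symbol names such a segment, which gave 74 of 18607 rows. Of these, 33 belonged to the beta locus (16 V, 2 D, 13 J and 2 C), 14 to the gamma locus (7 V, 3 J and 4 C), 22 to the alpha locus (18 V, 3 J and 1 C) and 5 to the delta locus (3 V, 1 D and 1 J). All 74 symbols matched a gene of the GENCODE M21 annotation (GRCm38). That annotation holds 35 beta V, 7 gamma V, 128 alpha V and 60 alpha J segments, so the table covers the gamma locus almost fully and the alpha locus in small part. The delta constant segment and the other annotated segments were not analysed here, and whether low rows were filtered before deposit is not given in the sources used here.

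RNA-seq was done on progenitors sorted from bone marrow of C57BL/6 mice, on the way from lymphoid progenitors to innate lymphoid cells (ILC). ALP (7 libraries) were lineage-low, Ly-6D-low cells with Kit, IL-7Rα and high Flt3. EILP (7 libraries) were lineage-low, Ly-6D-low and CD122-low cells with Kit, high green fluorescence and little Thy-1.2, and their IL-7Rα ran from low to intermediate. ILCp (5 libraries) had the same first markers as EILP but were Thy-1.2-positive and α4β7-positive with high IL-7Rα. All mice carried a Tcf7EGFP/+ reporter allele except those of ILCp 4 and ILCp 5, which were Plzf-cre-GFP/+, so the gate for green fluorescence read a different allele in those libraries. The sources used here give neither the ages of the mice nor how many were pooled for a library.

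A T cell receptor chain is assembled when the RAG recombinase joins a V, a D (beta and delta only) and a J segment, and splicing then links the joined piece to a C segment. Unrearranged segments can also be transcribed from promoters inside the loci, such as one before Trbd1, and this germline transcription is known in early lymphoid cells. T cells and their precursors use these receptors, whereas ILC are defined by the lack of rearranged antigen receptors. The table gives 1 level per annotated segment, and a transcript of a rearranged locus cannot be told apart from an unrearranged one.

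The beta and gamma loci are built as clusters, in which D or V and J pieces lie before their own constant segment. Beta cluster 1 runs from Trbd1 through Trbj1-1 to Trbj1-7 and ends with Trbc1 (chr6:41538218-41539881, GRCm38). Beta cluster 2 follows with Trbd2, its J segments and Trbc2 (chr6:41546730-41548352). The D and J pieces are as short as a sequencing read or shorter, and those of beta cluster 1 are shown here because they carry the main beta result. The sequences were read from the GENCODE M21 transcripts (GRCm38, plus strand) and run 5′ to 3′. Capitals mark the first match to TTNGNNNNNGGN, a loose spelling of the codons for the phenylalanine-glycine-X-glycine motif conserved in J segments. The pattern fixes only the first base of the second codon, so a match need not encode that motif. In Trbj1-6 the second codon is GCG, which does not encode glycine.
Trbd1, chr6:41533201-41533212: gggacagggggc
Trbj1-1, chr6:41533864-41533911: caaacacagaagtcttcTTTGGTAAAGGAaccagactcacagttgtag
Trbj1-2, chr6:41534001-41534048: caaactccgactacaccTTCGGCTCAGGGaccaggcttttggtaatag
Trbj1-3, chr6:41534323-41534372: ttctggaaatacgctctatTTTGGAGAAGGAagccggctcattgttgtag
Trbj1-4, chr6:41534811-41534861: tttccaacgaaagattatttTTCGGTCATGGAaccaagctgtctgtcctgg
Trbj1-5, chr6:41535084-41535133: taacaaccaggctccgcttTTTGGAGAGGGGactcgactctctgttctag
Trbj1-6, chr6:41535554-41535606: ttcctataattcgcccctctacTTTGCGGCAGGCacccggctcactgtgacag
Trbj1-7, chr6:41535642-41535687: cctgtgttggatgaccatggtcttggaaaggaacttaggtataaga

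This loose pattern was found on the plus strand of 63 of 70 annotated mouse J transcripts (90.0%) and on the minus strand of 0 (0.0%). It was not found in Trbj1-7, the last J segment of the cluster, and Trbj1-5 held 2 matches. Of the gamma J segments, Trgj1 belongs to the cluster of Tcrg-C1, Trgj2 to that of Tcrg-C2 and Trgj4 to that of Tcrg-C4. They are shown because each rose with its constant segment. Trgj1 and Trgj4 lie on the plus strand and Trgj2 on the minus strand, and each is printed as transcribed. The second codon of their marked stretches is GCA or GCC, which does not encode glycine.
Trgj1, chr13:19210343-19210402: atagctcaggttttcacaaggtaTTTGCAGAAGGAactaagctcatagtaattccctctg
Trgj2, chr13:19311245-19311304: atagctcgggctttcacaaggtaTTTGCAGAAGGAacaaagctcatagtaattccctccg
Trgj4, chr13:19342152-19342212: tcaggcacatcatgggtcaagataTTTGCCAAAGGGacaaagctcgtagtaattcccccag

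All levels are the authors' log2 CPM (counts per unit of library size, on a log2 scale), from which, judged from the values, differences between the 5 batches had been removed. An SD of these levels therefore leaves out the spread between batches. Library depths cannot be read from such a table. A gene with no reads appears as a tie of libraries of a batch at the gene's lowest value (tolerance 1e-05), near −4.96 log2 CPM on average. A group is called listed at zero when no library lay above such a tie and at least 1 was tied. No fold is given against such a group. Batch 3 held only EILP 3 and EILP 4, so under a model with batch these inform the errors but no difference. Their deposited levels lay evenly around the EILP mean, as for Trbj1-1 (4.88 and 4.91 around 4.90 log2 CPM). They are thus not independent readings of the EILP level, although EILP SDs and overlaps between groups count them. Nothing in the labels ties the libraries of 1 group to different animals. The p-values thus measure only how far these samples spread, and that spread may be technical.

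Fewer receptor segments were listed at zero in EILP and ILCp than in ALP, and many stayed low in all groups. In ALP, 52 of the 74 segments were listed at zero, against 17 in EILP and 12 in ILCp. A group mean above 0 log2 CPM was reached by 1 of the 74 in ALP, 20 in EILP and 24 in ILCp, and 41 segments in EILP and 38 in ILCp exceeded 0 in no library. Per library, 4 to 10 segments lay above zero in ALP, 12 to 47 in EILP and 34 to 51 in ILCp. The 12 belong to EILP 4, in which another 34 segments were lowest in the batch with no tie to show a zero. The same held for 30 segments in ALP 4 and 22 in ALP 1, but for only 0 or 1 in each ILCp library. The lowest library of a batch is never counted as above zero. The ALP counts above zero may therefore be too low, and the 52 listed at zero too many. In the limma fit over all 18607 rows (two-sided, Benjamini-Hochberg adjusted p below 0.05), 24 of 74 segments were higher in EILP than in ALP and 0 were lower, where 5.05% of all rows were called, 2.25% higher and 2.79% lower. From EILP to ILCp, 6 segments were higher and 0 lower (3.21% of all rows called, 1.76% higher and 1.46% lower). From ALP to ILCp, 27 were higher and 0 lower (8.24% called, 3.86% higher and 4.39% lower). At an unadjusted p below 0.05, limma took 29, 21 and 36 segments in the same order.

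Both comparisons against ALP share the ALP libraries. Altogether 28 segments were called in at least 1 comparison, 23 in both against ALP and 3 in all 3. The median log2 difference of the 74 segments was 1.26 (EILP versus ALP), 0.69 (ILCp versus EILP) and 2.11 (ILCp versus ALP), against 0, −0.08 and −0.03 for all rows. These medians depend on the level given to zero. Within each batch that held both groups, 21 of the 24, 4 of the 6 and 25 of the 27 called segments had the same sign in every batch.

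**Figure D1:**
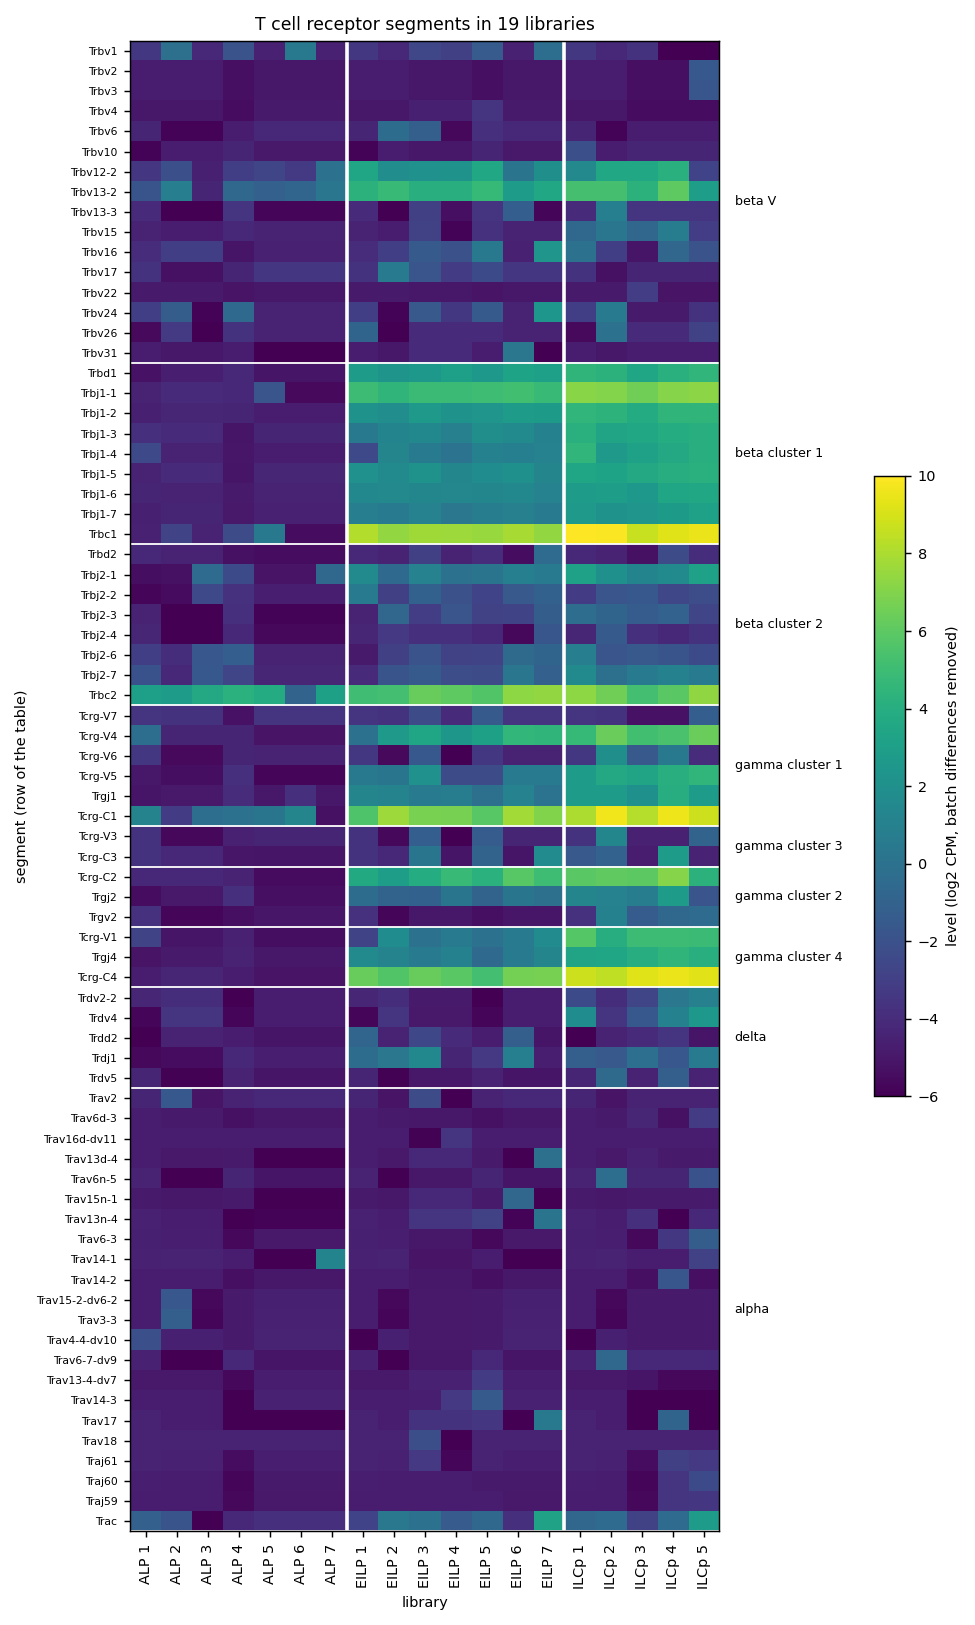
Level (log2 CPM, colour) of the 74 receptor segments (rows, grouped by locus and cluster) in the 19 libraries (columns). Beta cluster 1 and gamma clusters 1, 2 and 4 go from dark in ALP to bright in EILP and ILCp, and the 22 alpha rows stay dark in nearly all libraries.

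By locus, most calls fell on beta and gamma segments. From ALP to EILP, 15 of 33 beta and 9 of 14 gamma segments rose, against 0 of 22 alpha and 0 of 5 delta segments (limma; 1 alpha and 2 delta segments had an unadjusted p below 0.05). From EILP to ILCp, 1 of 33 beta, 4 of 14 gamma, 0 of 22 alpha and 1 of 5 delta segments rose. The beta share of 3.03% was near that of all rows (3.21% called, 1.76% higher), so the beta locus does not stand out at this step. From ALP to ILCp, 16 beta, 10 gamma, 0 alpha and 1 delta segment rose, where 3.86% of all rows were higher. By class, 5 of 7 C, 13 of 20 J, 1 of 3 D and 5 of 44 V segments rose from ALP to EILP. Whether the loci or classes differ in their response was not tested.

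Of the 7 constant segments, 5 rose from ALP to EILP (Trbc1, Trbc2, Tcrg-C1, Tcrg-C2 and Tcrg-C4). Trbc1, the constant segment of beta cluster 1, had a lowest, median and highest level of −5.47, −4.49 and 0.47 log2 CPM in ALP and of 7.42, 7.68 and 8.13 in EILP. In ILCp 1 to 5 it was at 10.07, 9.93, 8.66, 9.22 and 9.52. The 3 groups did not overlap, and the highest ALP library was ALP 5. Trbc1 rose by 11.19 ± 0.84 on the log2 scale from ALP to EILP (SE; limma adjusted p = 5.78e-07), a value that rests in part on the zero level, since only 2 ALP libraries lay above the lowest value of their batch. From EILP to ILCp its difference was 1.79 ± 1.00 and did not pass the test (limma adjusted p = 0.392), although every ILCp library was above every EILP library.

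Trbc2, the constant segment of beta cluster 2, was already present in ALP. Its lowest, median and highest levels were −0.89, 3.10 and 4.25 log2 CPM in ALP and 5.11, 6.00 and 7.42 in EILP. In ILCp 1 to 5 it was at 7.30, 6.55, 5.21, 5.92 and 7.33, which overlaps EILP, and ALP 6 was the low ALP library. Trbc2 rose by 3.30 ± 0.78 on the log2 scale from ALP to EILP (limma adjusted p = 0.0198) and by 3.64 ± 0.89 from ALP to ILCp (adjusted p = 0.0182). The difference from EILP to ILCp was 0.34 ± 0.93 (adjusted p = 0.905). The call from ALP to EILP was lost without ALP 1, EILP 6 or EILP 7, with differences of 3.36, 2.95 and 2.90, and that from ALP to ILCp without ILCp 1, ILCp 2 or ILCp 5, with 3.21, 3.59 and 3.46.

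The order of the 2 beta constant segments within a library turned over between ALP and EILP. Trbc1 minus Trbc2 averaged −6.32 ± 1.93 log2 units over the ALP libraries (SD), 1.56 ± 1.00 over the EILP libraries and 3.02 ± 0.54 over the ILCp libraries. It was below 0 in all ALP libraries, whose highest value was −3.35, and above 0 in all EILP and ILCp libraries, whose lowest were 0.00847 and 2.19. The shift from ALP to EILP within batches was 7.86 (exact permutation test within batches, two-sided, p = 0.00833, the smallest that its 120 permutations allow). The ALP values and the size of this shift rest in part on the zero level, since only 2 ALP libraries lay above the lowest Trbc1 value of their batch. Adjusted over 6 such tests, of a pair of segments chosen after their values were seen, p was 0.05 (exact permutation). From EILP to ILCp the shift was 0.72 (exact permutation p = 0.25, where 16 permutations allow no p under 0.0625). The transcripts of Trbc1 and Trbc2 are 86.3% identical, and 41.1% of the 50-base stretches of Trbc1 and 44.0% of those of Trbc2 also occur in the other. How reads that fit both were counted is not given in the sources used here, so the split between them is uncertain.

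The gamma constant segments rose too, except for Tcrg-C3. Tcrg-C1 (chr13:19214103-19217024) had a lowest, median and highest level of −5.29, 0.05 and 1.25 log2 CPM in ALP and of 5.58, 6.81 and 7.77 in EILP. In ILCp 1 to 5 it was at 8.03, 9.68, 8.23, 9.59 and 8.76, and no group overlapped another. It rose by 7.63 ± 0.99 on the log2 scale from ALP to EILP (limma adjusted p = 0.000168). The difference from EILP to ILCp was 2.09 ± 1.17 (adjusted p = 0.397).

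Tcrg-C4 (chr13:19344558-19352756), which shares no 50-base stretch with another constant segment of the table, was listed at zero in ALP. It lay at 5.24, 6.27 and 6.71 log2 CPM in EILP (lowest, median and highest) and at 8.80, 8.47, 9.21, 9.53 and 9.27 in ILCp 1 to 5. Each ILCp library was above each EILP library. The difference from ALP to EILP had the smallest adjusted p of the 74 segments (limma, 5.9e-10), and Tcrg-C4 rose again by 2.95 ± 0.50 on the log2 scale from EILP to ILCp (adjusted p = 0.00455). Of the 6 segments called from EILP to ILCp it was the only one whose call was kept without each of the 19 libraries in turn.

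Tcrg-C2 (chr13:19304649-19307551, minus strand) was also listed at zero in ALP. It was at 2.91, 4.24 and 5.86 log2 CPM in EILP and at 5.88, 6.10, 5.94, 7.09 and 4.26 in ILCp 1 to 5 (EILP versus ALP limma adjusted p = 5.99e-07). ILCp overlapped EILP through ILCp 5, and the difference of 1.50 ± 0.82 between them did not pass (adjusted p = 0.384). Tcrg-C3 (chr13:19260884-19263528) was listed at zero in ALP and varied among libraries of the other groups, from −5.09 to 1.69 in EILP and from −4.71 to 2.78 in ILCp. It passed in no comparison (limma adjusted p = 0.475, 0.901 and 0.361). Between 25.4% and 36.2% of the 50-base stretches of Tcrg-C1, Tcrg-C2 and Tcrg-C3 occur in another constant segment, so reads could be split among them.

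Per kilobase of exon, the EILP means were 8.10 log2 CPM for Trbc1, 6.88 for Tcrg-C1, 6.66 for Trbc2, 6.12 for Tcrg-C4 and 4.48 for Tcrg-C2. The SD over EILP libraries was 0.26, 0.83, 0.93, 0.54 and 0.96. The spreads of Tcrg-C1, Trbc2 and Tcrg-C4 overlapped, which does not show that they are equal, since all were measured in the same libraries. In ILCp the order was Trbc1 at 9.90, Tcrg-C4 at 9.08, Tcrg-C1 at 8.97, Trbc2 at 6.99 and Tcrg-C2 at 5.98, with SDs of 0.57, 0.42, 0.76, 0.91 and 1.02. In ILCp the spreads of Tcrg-C4 and Tcrg-C1 overlapped as well. Within libraries, Tcrg-C4 minus Tcrg-C1 was −3.92 ± 2.50 in ALP, −0.66 ± 0.82 in EILP and 0.20 ± 0.88 in ILCp (log2, SD). Tcrg-C4 was listed at zero in ALP, so the ALP value and the shifts from ALP depend on the level given to zero. In EILP the difference was below 0 in every library except EILP 1 (0.69). None of the 3 shifts passed (exact permutation within batches, adjusted p = 0.1 in each). From EILP to ILCp the exact permutation p was 0.0625, the smallest that its 16 permutations allow, so that test could not pass. From ALP to ILCp the 24 permutations allow no p under 0.0417. A shift is thus not excluded.

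Trac, the only alpha constant segment (chr14:54220521-54224206), stayed low. Its lowest, median and highest levels were −6.32, −3.83 and −1.08 log2 CPM in ALP and −3.83, −0.58 and 3.22 in EILP. In ILCp 1 to 5 it was at −0.71, −0.42, −2.89, −0.40 and 2.77. The groups overlapped, with EILP 7 and ILCp 5 high, and no comparison passed (limma adjusted p = 0.287 for EILP versus ALP, 0.942 for ILCp versus EILP and 0.244 for ILCp versus ALP).

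**Figure D2:**
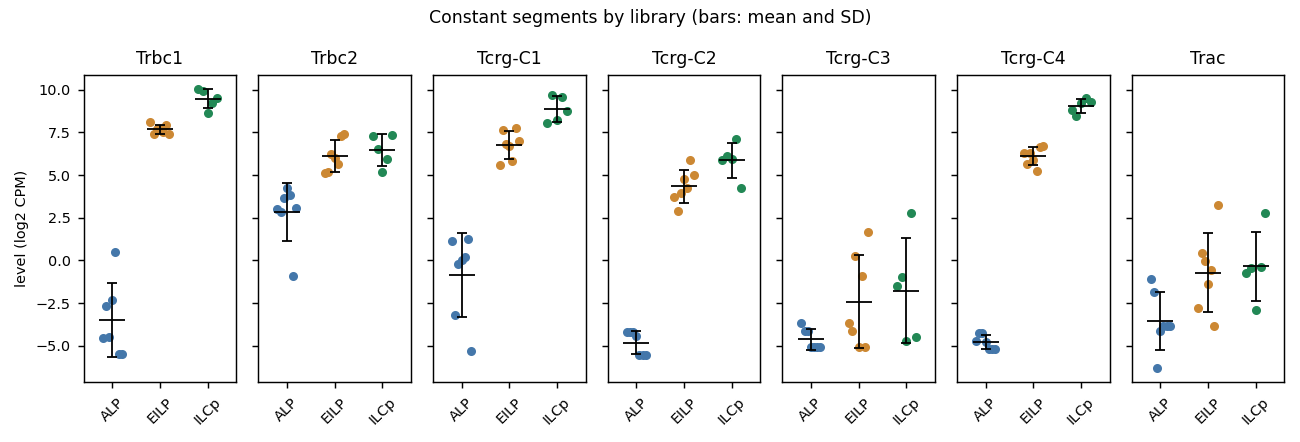
Level (log2 CPM) of the 7 constant segments in each library (points), with mean and SD per group. Trbc1, Tcrg-C1, Tcrg-C2 and Tcrg-C4 separate ALP from the other groups by several log2 units, Trbc2 starts at a mean of 2.83 in ALP, and Tcrg-C3 and Trac overlap between groups.

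Within the beta locus, all 9 segments of cluster 1 rose from ALP to EILP and from ALP to ILCp. In ALP, 7 of them (Trbd1 and Trbj1-2 to Trbj1-7) were listed at zero. Trbd1, the D segment, was at 2.28, 2.87 and 3.26 log2 CPM in EILP (lowest, median and highest) and at 4.46, 4.28, 3.50, 4.13 and 4.55 in ILCp 1 to 5 (EILP versus ALP limma adjusted p = 5.99e-07). Trbj1-1, the first J segment, was at 4.49, 4.91 and 5.16 in EILP and at 7.14, 7.06, 6.50, 7.07 and 7.25 in ILCp 1 to 5. In ALP only ALP 5, at −1.80, lay above the lowest Trbj1-1 value of its batch, and ALP 5 was also the highest ALP library for Trbc1.

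The other 6 J segments of the cluster showed the same steps. Their EILP means ran from 0.37 ± 1.31 (Trbj1-4) to 2.38 ± 0.33 (Trbj1-2) log2 CPM and their ILCp means from 2.61 ± 0.37 (Trbj1-7) to 4.34 ± 0.28 (Trbj1-2) (SD, n = 7 and n = 5). Their limma adjusted p for EILP versus ALP ran from 1.2e-06 (Trbj1-2) to 0.00267 (Trbj1-4). Trbj1-4 was the only one of the 9 whose EILP and ALP libraries overlapped, because EILP 1 was at zero there. Trbj1-7, the segment without a match to the pattern, rose like the others and had means of 0.73 in EILP and 2.61 in ILCp.

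Trbj1-1 stood above its neighbour of the same length in every EILP and ILCp library. Trbj1-1 and Trbj1-2 both span 48 bases, and Trbj1-1 minus Trbj1-2 was between 2.17 and 2.76 log2 units in EILP (median 2.64) and between 2.62 and 2.75 in ILCp. Per kilobase, Trbj1-1 averaged 9.28 log2 CPM in EILP and 11.39 in ILCp, above the other 6 J segments of the cluster at 4.66 to 6.76 and 7.05 to 8.72. Its per-kilobase level was also above that of Trbc1, at 8.10 and 9.90. For pieces no longer than a read, a level per kilobase depends on how reads that overhang the piece were counted, which is not given in the sources used here.

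From EILP to ILCp, each of the 9 segments was higher in every ILCp library than in every EILP library, yet 0 of 9 passed the limma test after adjustment (7 at an unadjusted p below 0.05). The median difference was 1.94 log2 units, from 1.39 (Trbd1) to 3.23 (Trbj1-4), and the smallest adjusted p was 0.0689 (Trbj1-3, 2.58 ± 0.73). Over the whole table, every ILCp library was above every EILP library in 3.35% of rows. Of the 74 receptor segments this held for 16, and the corresponding counts were 19 for EILP above ALP (2.36% of rows) and 25 for ILCp above ALP (4.01% of rows).

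Fewer calls were made in beta cluster 2, and whether it differs from cluster 1 was not tested. From ALP to EILP, 4 of its 8 segments rose (Trbc2, Trbj2-1, Trbj2-2 and Trbj2-3), and from ALP to ILCp 4 (Trbc2, Trbj2-1, Trbj2-3 and Trbj2-7). Trbj2-1 was at −5.43, −5.17 and −0.40 log2 CPM in ALP (lowest, median and highest), at −0.55, 0.64 and 1.57 in EILP, and at 3.15, 2.02, 1.22, 1.59 and 3.17 in ILCp 1 to 5. EILP overlapped ALP through ALP 3 and EILP 2 alone (4.04 ± 1.09, limma adjusted p = 0.0428). Trbj2-7, the last J segment of the cluster, had means of −3.32 ± 1.20, −1.82 ± 1.34 and 0.72 ± 0.66 in ALP, EILP and ILCp, and only ILCp versus ALP passed (4.04 ± 1.02, limma adjusted p = 0.0215). Trbd2 (chr6:41542163-41542176), the second D segment, was listed at zero in ALP, lay above zero in 3 EILP and 2 ILCp libraries and passed in no comparison.

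The calls of cluster 2 J segments depended on single libraries. For EILP versus ALP, Trbj2-1 lost its call on leaving out ALP 1, 2, 5 or 6, any EILP library, or ILCp 2 to 5 (limma adjusted p from 0.0526 to 0.111). Trbj2-2 depended in the same way on ALP 1, 2, 5, 6 and 7, EILP 1, 6 and 7, and ILCp 2 and 4 (adjusted p from 0.0507 to 0.109). Trbj2-3 depended on ALP 2, 3, 5, 6 and 7 and on EILP 2, 6 and 7 (adjusted p from 0.0508 to 0.108). For ILCp versus ALP, Trbj2-7 was lost without ILCp 1 (3.56, adjusted p = 0.0722). The 9 segments of cluster 1 kept their calls against ALP without each library in turn.

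**Figure D3:**
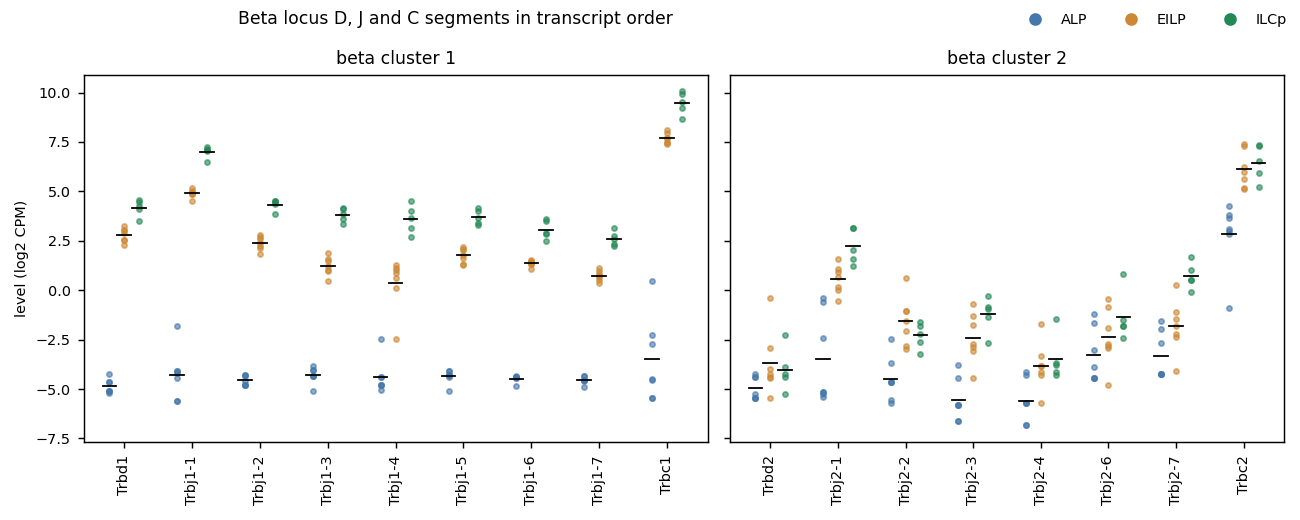
Level (log2 CPM) of the D, J and C segments of beta clusters 1 and 2, in transcript order, in each library (points coloured by group, black lines the group means). In cluster 1 the ALP points lie near the zero level and the ILCp points above the EILP points, with Trbj1-1 and Trbc1 highest, and in cluster 2 the groups overlap in most segments.

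Among the 16 beta V segments, Trbv13-2 and Trbv12-2, neighbours among the segments of the table, rose from ALP to EILP. Trbv13-2 (chr6:41121396-41121832) was at −4.32, −0.76 and 0.82 log2 CPM in ALP (lowest, median and highest), at 2.83, 4.07 and 4.85 in EILP, and at 5.31, 5.31, 4.27, 6.02 and 2.95 in ILCp 1 to 5. It rose by 5.13 ± 0.83 on the log2 scale (limma adjusted p = 0.00132), ALP and EILP did not overlap, and ILCp overlapped EILP (0.72 ± 0.99, adjusted p = 0.775).

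Trbv12-2 (chr6:41118851-41119364) was at −4.59, −3.02 and −0.02 log2 CPM in ALP, at 0.16, 2.11 and 3.54 in EILP, and at 1.52, 3.55, 3.56, 4.15 and −2.79 in ILCp 1 to 5. ILCp 5 lay within the ALP range. Trbv12-2 rose by 4.91 ± 1.21 on the log2 scale from ALP to EILP (limma adjusted p = 0.0254) and by 4.73 ± 1.38 from ALP to ILCp (adjusted p = 0.0456). Leaving out ALP 1, 4 or 6, or EILP 1, 2, 5 or 7, removed the first call (adjusted p from 0.0516 to 0.0856). Leaving out any of ALP 1 to 6, of EILP 2 to 5, EILP 7, or any of ILCp 1 to 4 removed the second (adjusted p from 0.054 to 0.232).

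Trbv15 (chr6:41141188-41141658) was listed at zero in ALP and rose from EILP to ILCp by 3.69 ± 0.82 on the log2 scale (limma adjusted p = 0.0235). In ILCp 1 to 5 it was at −0.68, 0.26, −0.71, 0.79 and −3.09 log2 CPM, and the highest EILP library was at −2.89, so ILCp 5 overlapped EILP. It was not called once EILP 1, 2 or 5, or ILCp 1 or 2, was left out (adjusted p from 0.0535 to 0.0905). The other 13 beta V segments passed in no comparison, and 4 of the 16 were listed at zero in EILP and 4 in ILCp.

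The gamma locus has 4 clusters, each ending in a constant segment. Cluster 1 holds Tcrg-V7, Tcrg-V4, Tcrg-V6, Tcrg-V5, Trgj1 and Tcrg-C1, and 4 of its 6 segments rose from ALP to EILP and from ALP to ILCp (Tcrg-V4, Tcrg-V5, Trgj1 and Tcrg-C1). The V segments of this cluster supply the receptors of γδ T cells that home to tissues such as the skin. Tcrg-V4 (chr13:19184974-19185506) was listed at zero in ALP. It lay at −0.01, 3.09 and 4.56 log2 CPM in EILP (lowest, median and highest) and at 4.70, 6.33, 5.17, 5.39 and 6.32 in ILCp 1 to 5 (limma adjusted p = 0.000395 for EILP versus ALP). EILP 1 was the low EILP library. ALP 1, at −0.24, was the high ALP one, although it was the lowest of its batch.

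Tcrg-V5 (chr13:19192278-19192725) was listed at zero in ALP, at −2.36, 0.48 and 2.11 log2 CPM in EILP, and at 2.78, 3.66, 3.35, 4.03 and 4.51 in ILCp 1 to 5. It passed against ALP (limma adjusted p = 0.00221), and its difference from EILP to ILCp, 3.75 ± 1.06, did not pass (adjusted p = 0.0698) with no overlap of the groups. Trgj1, printed above, had means of −4.66 ± 0.52, 0.71 ± 0.54 and 2.87 ± 0.69 in ALP, EILP and ILCp (limma adjusted p = 0.000128 for EILP versus ALP). Tcrg-V7 and Tcrg-V6 passed in no comparison. A gene annotated on the opposite strand, Gm31887, overlaps all 4 V segments of the cluster. The library kits do not mark strand, so reads of the 2 strands cannot be told apart.

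Cluster 4, with Tcrg-V1, Trgj4 and Tcrg-C4, was the cluster in which every segment rose at both steps. Tcrg-V1 (chr13:19339989-19340454) was listed at zero in ALP and at −2.70, 0.59 and 1.78 log2 CPM in EILP, where EILP 1 was at zero. In ILCp 1 to 5 it was at 5.80, 3.97, 4.96, 4.96 and 4.92, above every EILP library (4.63 ± 1.06, limma adjusted p = 0.0266). Trgj4 was listed at zero in ALP, at −0.56, 1.01 and 1.56 in EILP and at 3.35, 3.39, 3.95, 4.47 and 4.03 in ILCp 1 to 5 (3.04 ± 0.77, adjusted p = 0.0442). The call of Tcrg-V1 from EILP to ILCp was lost without EILP 5 (4.45) or ILCp 1 (4.17), and that of Trgj4 on leaving out EILP 2, 5 or 6, or ILCp 1, 2 or 4 (adjusted p from 0.0503 to 0.161). Without the Plzf-cre-GFP libraries neither passed from EILP to ILCp (4.62 for Tcrg-V1, limma adjusted p = 0.09, and 2.77 for Trgj4, adjusted p = 0.0918), and the Trgj4 call was also lost under quantile normalization and median centring. Of the 50-base stretches of Tcrg-V1, 24.6% occur in another V segment, most in Tcrg-V3, to which it is 95.7% identical.

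Cluster 2 lies on the minus strand and holds Trgv2, Trgj2 and Tcrg-C2. Trgj2 was listed at zero in ALP, at −1.03, −0.37 and 0.25 log2 CPM in EILP and at 1.29, 1.10, 0.76, 2.81 and −1.80 in ILCp 1 to 5 (limma adjusted p = 0.00252 for EILP versus ALP). Trgv2 (chr13:19336573-19337167) was listed at zero in both ALP and EILP and lay at −3.69, 1.02, −1.36, −0.64 and −0.39 in ILCp 1 to 5, with ILCp 1 at zero (limma adjusted p = 0.019 for ILCp versus EILP). That call was lost without EILP 2, EILP 5 or ILCp 2 (adjusted p from 0.0579 to 0.0887) and without the Plzf-cre-GFP libraries (adjusted p = 0.0865). Neither of the measured segments of cluster 3, Tcrg-V3 and Tcrg-C3, passed in any comparison.

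**Figure D4:**
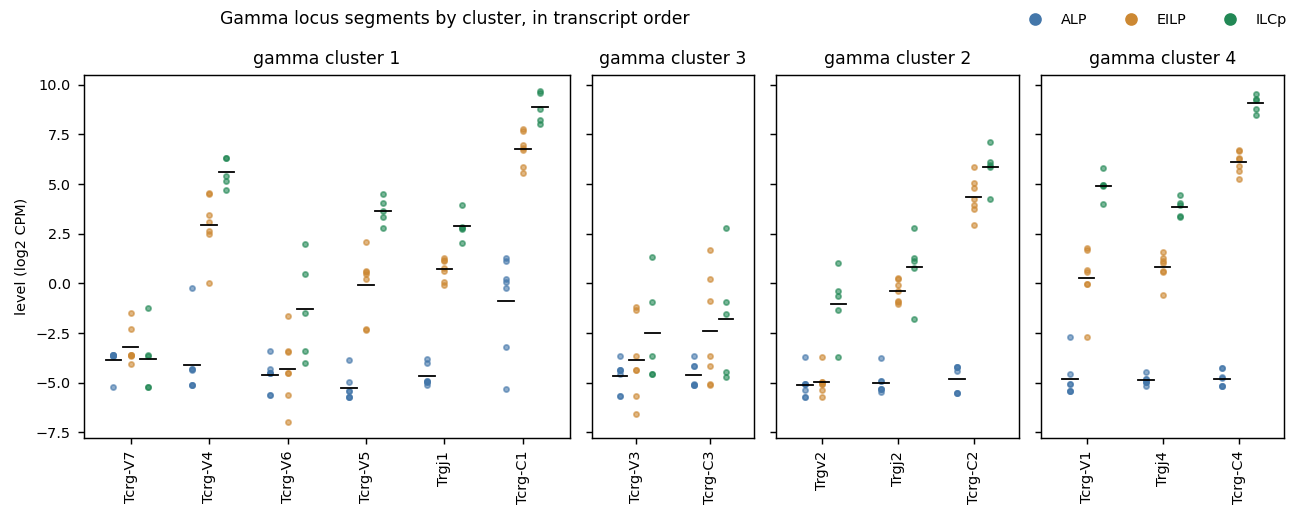
Level (log2 CPM) of the gamma segments by cluster, in transcript order, in each library (points coloured by group, black lines the group means). In cluster 4 the 3 groups form separate steps for Trgj4 and Tcrg-C4, and cluster 3 shows wide, overlapping groups.

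At the delta locus, which lies inside the alpha locus, Trdv4 was the only segment called. Trdv4 (chr14:54074905-54075515) was listed at zero in ALP and EILP and lay at 1.77, −3.59, −1.56, 1.02 and 2.51 log2 CPM in ILCp 1 to 5, with ILCp 2 at zero. It passed in ILCp versus EILP (limma adjusted p = 0.0261) and ILCp versus ALP (adjusted p = 0.0121). The first call needed ALP 4, EILP 1, EILP 5 and ILCp 1 (adjusted p from 0.0542 to 0.133 on leaving out 1 of them), and the second needed ALP 4 and ILCp 1 (adjusted p from 0.0604 to 0.0734). Both were also lost without the Plzf-cre-GFP libraries ILCp 4 and ILCp 5 (limma adjusted p = 0.0982 and 0.054), which were 2 of the 3 libraries with Trdv4 above 0. The D segment Trdd2 had means of −5.03, −3.26 and −4.68 in ALP, EILP and ILCp and passed in no comparison.

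The J segment Trdj1 (chr14:54123138-54123188) was listed at zero in ALP, ranged from −4.67 to 1.46 log2 CPM in EILP and was at −1.16, −1.56, −0.16, −1.68 and 0.69 in ILCp 1 to 5. Every ILCp library was above every ALP library, and neither comparison against ALP passed (limma adjusted p = 0.0956 for EILP and 0.0601 for ILCp). Trdv4, Trdd2 and Trdj1 are overlapped by Gm30275 on the opposite strand, whose reads cannot be told apart from theirs.

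None of the 22 alpha segments passed in any comparison (limma; 1, 1 and 2 at an unadjusted p below 0.05 for EILP versus ALP, ILCp versus EILP and ILCp versus ALP), and no alpha segment had a group mean above 0 log2 CPM. The highest means of alpha V segments were −4.02 in ALP (Trav2), −3.58 in EILP (Trav13n-4) and −3.04 in ILCp (Trav6n-5). Single libraries stood out, as Trav14-1 in ALP 7 (1.23) or Trav17 in EILP 7 (0.48). Of the 22, 16 were listed at zero in ALP, 9 in EILP and 8 in ILCp. The 3 alpha J segments in the table, Traj59, Traj60 and Traj61, had group means between −4.93 (Traj59 in ALP) and −4.17 (Traj61 in ILCp). Since depths are unknown, a rare transcript could be missed in some libraries.

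The levels in ILCp 4 and ILCp 5, from Plzf-cre-GFP/+ mice, were set against the 3 Tcf7EGFP/+ ILCp libraries in the same limma model. Of the 74 segments, 0 passed (9 at an unadjusted p below 0.05), where 14 of 18607 rows (0.0752%) were called and 845 had an unadjusted p below 0.05. The smallest adjusted p belonged to Trdv2-2, which was at 0.35 and 0.96 log2 CPM in ILCp 4 and 5 and at −2.41, −3.90 and −2.65 in ILCp 1 to 3 (4.57, adjusted p = 0.0987). Without these libraries, 2 segments in place of 6 were called from EILP to ILCp.

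The immunoglobulin loci, the B cell counterpart, served as a comparison. Of 65 immunoglobulin segments in the table, 0 rose and 24 fell from ALP to EILP, 0 passed from EILP to ILCp (limma, 4 at an unadjusted p below 0.05), and 0 rose and 23 fell from ALP to ILCp. Among all rows, 2.25% were higher and 2.79% lower from ALP to EILP, and 3.86% and 4.39% from ALP to ILCp. Their median log2 difference was −1.72, 0.09 and −1.77, against 1.26, 0.69 and 2.11 for the receptor segments. Ighm, the μ heavy chain constant segment, fell by 1.87 on the log2 scale from 10.53 in ALP to 8.67 in EILP (limma adjusted p = 6.01e-06). Ighv1-83, a heavy chain V segment, went from 2.83 ± 0.49 in ALP (SD, n = 7) to −5.05 ± 0.34 in EILP (limma adjusted p = 5.69e-07).

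**Figure D5:**
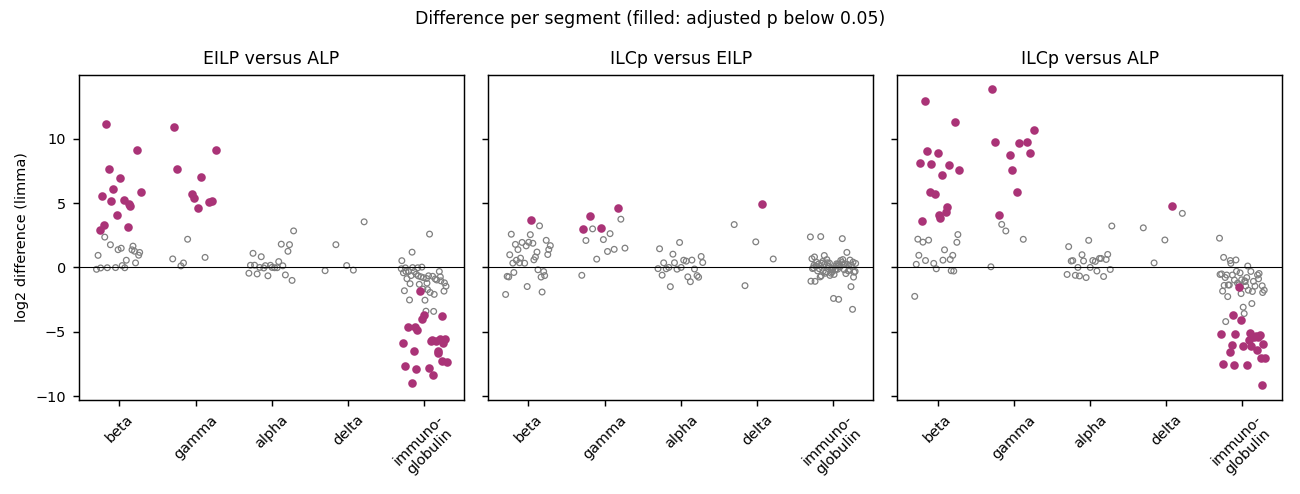
Log2 difference (limma) of each receptor segment by locus and of the 65 immunoglobulin segments in the 3 comparisons, with filled points for adjusted p below 0.05. From ALP to EILP the filled beta and gamma points (15 and 9) all lie above 0 and the 24 filled immunoglobulin points all below 0.

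Genes that make, carry or surround the receptor did not all move with its segments. Of 17 measured genes of V(D)J recombination, 1 rose and 6 fell from ALP to EILP, 0 passed from EILP to ILCp (limma, 3 at an unadjusted p below 0.05), and 1 rose and 6 fell from ALP to ILCp. Among all rows, 2.25% were higher and 2.79% lower from ALP to EILP, and 3.86% and 4.39% from ALP to ILCp. With 17 genes, 1 rise cannot be set apart from such shares. Rag1, which encodes a subunit of the recombinase, fell by 7.04 on the log2 scale from ALP to EILP (3.22 to −3.83, limma adjusted p = 0.0111), and Rag2, the other subunit, by 6.86 (adjusted p = 0.00274). Dntt, which adds bases at the joints, fell by 4.76 from 12.38 (adjusted p = 0.000545). Polm, a polymerase of end joining, rose by 7.32 ± 1.26 (adjusted p = 0.0021). The differences of Rag1 and Polm rest in part on the zero level, since for Rag1 only EILP 7 (1.82) lay above the lowest value of its batch in EILP, and for Polm 3 ALP libraries tied at −3.77.

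Of 22 measured genes of the CD3 complex and the signalling next to the receptor, 3 rose, Trat1 and Themis among them, and 1 fell (Cd27) from ALP to EILP. Themis, a T cell signalling adaptor, went from −5.06 in ALP to 4.89 in EILP (limma adjusted p = 1.51e-07), and Trat1, a receptor-associated transmembrane adaptor, rose by 5.79 ± 0.90 (adjusted p = 0.000857). From EILP to ILCp, Lcp2 rose and Syk and Ubash3a fell, and from ALP to ILCp 6 rose and 3 fell. The shares of all rows were 2.25% higher and 2.79% lower from ALP to EILP, 1.76% and 1.46% from EILP to ILCp, and 3.86% and 4.39% from ALP to ILCp. A list of 22 genes is too small to set counts of 1 or 2 apart from them. Cd3e, a chain needed to bring the receptor to the surface, had means of −5.62, −0.64 and −2.62 log2 CPM in ALP, EILP and ILCp and passed in no comparison (limma adjusted p = 0.0757, 0.643 and 0.349). Cd3d and Cd3g rose from ALP to ILCp (limma adjusted p = 0.0209 and 0.037).

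Of 16 factors known to bind enhancers of these loci or to modulate such factors, 6 rose and 1 fell from ALP to EILP, 4 rose and 0 fell from EILP to ILCp, and 9 rose and 2 fell from ALP to ILCp. The shares of all rows were 2.25% higher and 2.79% lower, 1.76% and 1.46%, and 3.86% and 4.39%, in the same order. Tcf7, whose reporter was read in the sort, was among the 6. Bcl11b, a T lineage factor, went from −5.24 in ALP to 4.39 in EILP and 8.14 in ILCp (limma adjusted p = 4.87e-09 and 0.00163). Gata3 went from 1.55 to 7.10 and 10.06 (adjusted p = 2.72e-07 and 0.00249). Ets1 fell by 1.76 from ALP to EILP and rose by 4.81 ± 0.44 from EILP to ILCp (limma adjusted p = 0.00865 and 1.97e-05).

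Of 17 measured genes that lie within or next to the loci, 1 rose (Prss2) and 1 fell (Abhd4) from ALP to EILP. Of all rows, 2.25% were higher and 2.79% lower, and 17 genes are too few to set apart from such shares. From EILP to ILCp 0 passed (limma, 3 at an unadjusted p below 0.05). From ALP to ILCp 2 rose, Prss2 and Sall2, where 3.86% of all rows were higher. Prss2, a trypsinogen gene (chr6:41521787-41525079), lies before Trbd1 and rose by 4.75 ± 1.15 on the log2 scale (limma adjusted p = 0.0231). It was at −5.40 to 1.39 log2 CPM in ALP, at 0.76 to 4.34 in EILP and at 2.25 to 4.52 in ILCp.

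T cells and γδ T cells express these segments, so markers of such cells were read beside them. The summed level of 12 T cell markers was 8.96 to 368 CPM in ALP, 61.2 to 110 in EILP and 218 to 916 in ILCp, so ALP overlapped both other groups and the EILP range lay below that of ILCp. From ALP to EILP, 2 of the 12 rose, Themis and Bcl11b, where 2.25% of all rows were higher. Both are part of the sum, and Bcl11b is also one of the enhancer factors above, so the sum need not follow the content of T cells. The coreceptor gene Cd4 ranged from −5.23 to 4.32 log2 CPM in ALP, from −7.88 to −2.38 in EILP and from −4.31 to 1.30 in ILCp, and the highest EILP value was a tie at zero. Cd8a was at most 0.02 in ALP, −1.20 in EILP and 2.87 in ILCp. The summed level of 7 measured γδ T cell markers was 2.74 to 97.7 CPM in ALP, 9.96 to 58.6 in EILP and 167 to 478 in ILCp. Of the 7, 1 rose and 3 (Blk, Sh2d2a and Sox13) fell from ALP to EILP, 2 (Sh2d2a and Cd163l1) rose and 0 fell from EILP to ILCp, and 3, Cd163l1 and Maf among them, rose and 1 (Blk) fell from ALP to ILCp. The shares of all rows were 2.25% higher and 2.79% lower, 1.76% and 1.46%, and 3.86% and 4.39%, in the same order. With 7 genes, a count of 1 cannot be set apart from these shares. The part of such cells in the segment levels was not tested, and in sorted bulk samples fewer cells with a transcript and less transcript per cell cannot be told apart.

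The same was done for other cells. Summed over their lists, NK cell markers were at 1.58 to 24.1 CPM in ALP, 94.2 to 232 in EILP and 322 to 944 in ILCp, B lineage markers at 82.7 to 255, 53.0 to 96.3 and 27.1 to 57.0, and myeloid markers at 551 to 6341, 1618 to 41748 and 89.9 to 1695. NK cells can hold germline receptor transcripts, and the part of NK cells in the segment levels was not tested either. The highest myeloid sum was that of EILP 2. It was the lowest EILP library for some segments, as for Trbd1 (2.28), Trbj1-1 (4.49) and Tcrg-C2 (2.91). It was the highest for others, as for Trbv13-2 (4.85), Tcrg-V1 (1.78), Trbj1-4 (1.27) and Trbj1-6 (1.53). For Trbc1 (7.43) and Tcrg-C4 (5.64) it was within the range of the other EILP libraries. The part of myeloid cells was not tested. Of 9 innate lymphoid progenitor markers, 8 were higher in EILP than in ALP and 1, Il7r, whose product was used in the sort, was lower (2.25% of all rows were higher and 2.79% lower). Tcf7 was among the 8, and EILP were sorted for high fluorescence of the Tcf7EGFP reporter, so its rise was not independent of the sort.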

How the data were processed

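Expression was measured by RNA-seq in 19 libraries (ALP 7, EILP 7 and ILCp 5), grouped by their labels. The values are the log2 CPM that the authors deposited for 18607 genes, with 9 empty columns and 0 unused columns of samples. From the values, batch differences were removed before deposit, and no counts or depths can be recovered. The submitters' processing notes name bcl2fastq 1.8.4, STAR 2.4.0h, edgeR, limma and mm10. How reads were assigned to segments is not given in the sources used here. Per the labels' protocols, RNA was amplified with a SMARTer kit and libraries were made with Nextera XT, which keeps no strand.

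The members and the gene lists were chosen with earlier results of these data known. Differences were fitted with limma 3.58.1 (R 4.3.3) on all rows and libraries, with group and batch as fixed effects and a variance trend, two-sided, with Benjamini-Hochberg adjustment over 18607 rows and a threshold of 0.05. No low values were filtered. Segments in the text are every constant segment, every segment called in a comparison, and the segment with the highest group mean per locus and class. Of each list, up to 3 rising and 3 falling genes with the smallest p may be named, and others named were chosen after their values were seen. Some list genes are not reported here. Sequences, lengths and coordinates come from GENCODE M21 (GRCm38), with identity from Biopython 1.88 and shared stretches of 50 bases. Shared stretches were sought among the constant segments and among the V segments, in the longest transcript of each. The fit and the permutation test were tested on simulated data. Alternatives covered batch terms, the replicate block, normalization, filters, variance priors, the reporter allele and each library in turn.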

Additional observations from a re-analysis of the deposited data

Results flagged for a closer look

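In 16 of 90 groups of values (30 named segments in 3 groups, 17.8%), 1 library lay apart from the rest of its group by Dixon's criterion. Chance gives about 1 in 20, and ties at zero within batches make a flag more likely. In ALP, the library above the others was ALP 1 for Tcrg-V1 (−2.70 log2 CPM), Tcrg-V4 (−0.24), Trbj1-4 (−2.47) and Trgv2 (−3.69), ALP 4 for Tcrg-V5 (−3.86) and Trgj2 (−3.75), and ALP 5 for Trbj1-1 (−1.80). The library below the others was ALP 4 for Trbj1-3 (−5.08), Trbj1-5 (−5.10) and Trbj1-6 (−4.83), and ALP 6 for Trbc2 (−0.89). In EILP, EILP 1 lay below the others for Tcrg-V1 (−2.70) and Trbj1-4 (−2.47) and above them for Trgv2 (−3.69), each a tie at zero with ALP 1. In ILCp, ILCp 3 lay below the others for Trbj1-1 (6.50) and Trbj1-2 (3.85). Per library these were 5 values of ALP 4, 4 of ALP 1, 3 of EILP 1, 2 of ILCp 3 and 1 each of ALP 5 and ALP 6.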

How the results depend on the processing

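The count of segments that rose from ALP to EILP, 24, was 20 to 30 under the other settings and 20 to 24 without each library in turn, except that 6 were called among genes above the median level, where only 6 of the 74 were tested. The 30 came with batch as a random effect, where 1707 of all rows were higher and 1684 lower, in place of 419 and 520. From ALP to ILCp the count of 27 became 60 with batch as a random effect, 54 of them higher, and 6 among genes above the median level, and it was 23 to 27 without each library in turn. Over all rows the random effect gave 5396 higher and 6216 lower from ALP to ILCp, in place of 718 and 816. The count from EILP to ILCp, 6, was the least stable. It was 22 without a batch term, 40 with batch as a random effect (33 higher), 13 without a variance trend, 2 without the Plzf-cre-GFP libraries, 1 among genes above the median level and 3 without EILP 7 and ILCp 5, a setting chosen after seeing the data. With only the groups compared it was again 6, of which 1, Tcrg-C4, was among the 6 called before; that setting also lost 4 calls from ALP to EILP and 5 from ALP to ILCp. Without each library in turn it was 1 to 9, with 1 without EILP 5, 2 without ILCp 1 and 3 without EILP 2. Over all rows from EILP to ILCp, 327 higher and 271 lower calls became 1339 and 1708 without a batch term. They became 3625 and 4576 with the random effect, and 176 and 104 without a variance trend. Fits without a fixed batch term do not allow for the batch differences removed before deposit. The causes of these changes were not tested, other than the fewer segments tested above the median level. With the replicate block in place of batch, 25, 11 and 29 segments were called in the 3 comparisons. Whether the replicate numbers pair the samples could not be decided. Over 17 same-numbered pairs the correlation of deviations ran from −0.64 to 0.116. However, removing batch differences forces libraries of a batch to deviate in opposite directions, and many same-numbered libraries share a batch. Without each library in turn, 19 of 24, 1 of 6 and 23 of 27 calls were kept. The difference from EILP to ILCp turned negative for Trac without the Plzf-cre-GFP libraries (−0.61), EILP 1 (−0.51), EILP 6 (−0.15) or ILCp 5 (−0.28), with a highest value of 1.05 without EILP 7. It did so for Trbc2 without EILP 1 (−0.09), EILP 2 (−0.00925) or ILCp 1 (−0.11), with a highest value of 0.71, and for Tcrg-C3 without ILCp 4 (−0.32), with a highest value of 1.53. Centring each library on its median moved the median difference of all genes from ALP to EILP to 0.215 and the calls over all genes from 419 higher and 520 lower to 804 and 395, with 24 segments called as before. The same centring gave 279 higher and 390 lower in place of 327 and 271 from EILP to ILCp, and 813 and 584 in place of 718 and 816 from ALP to ILCp. Library depth is unknown, which limits what can be said of segments at zero.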
